A study of Mus musculus with 10 samples.

Results

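The AP-1 and immediate-early transcription factors described here are 10 genes given by symbol, Fos, Fosb, Fosl1, Fosl2, Jun, Junb, Jund, Egr1, Atf3 and Ier2. All 10 were found, each under 1 gene identifier, among the 48709 genes of the deposited tables, of which 21695 are protein-coding. They were listed by name, with no threshold on a measured value, when earlier results of these data were known. They were measured by RNA sequencing in 10 libraries of supporting cells, the non-sensory cells that surround hair cells. The cells were sorted by green fluorescence from cultured utricles, vestibular organs of the inner ear, of Lfng-EGFP mice at postnatal day 21 (P21), in which the fluorescent protein marks cells that express Lfng.

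Utricles received TRULI at 10 μM in 0.1% DMSO, or 0.1% DMSO alone, for 5 d. TRULI inhibits the Lats kinases, which phosphorylate the coactivator Yap and keep it out of the nucleus. The paper also reports other kinases that bound TRULI, some more strongly than Lats1, and does not exclude further mechanisms. A second set of cultures was kept for 5 d more without the compound, here called withdrawal. By the sample labels there were 3 libraries of DMSO 5 d, 3 of TRULI 5 d, 2 of DMSO withdrawal and 2 of TRULI withdrawal. All groups shared the explant culture, the dissociation and the sort, and no freshly isolated tissue was analysed here. The sources used here do not say how many animals were pooled for a library.

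For 4 of the 10 libraries, the label and the name under which the table was deposited give different conditions. The libraries labelled TRULI 5 d replicates 1 and 2 were deposited as DMSO withdrawal replicates 1 and 2. The libraries labelled DMSO withdrawal replicates 1 and 2 were deposited as TRULI 5 d replicates 2 and 3. The library labelled TRULI 5 d replicate 3 was deposited as TRULI 5 d replicate 1. The 3 DMSO 5 d libraries and the 2 TRULI withdrawal libraries carry the same condition in both. Libraries are named below by their labels unless the deposited name is given, each comparison is reported for both groupings, and neither is treated as settled.

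The tables held 2463872 to 6255149 counts per library, and a floor of 3 counts corresponded to 0.48 to 1.22 CPM (counts scaled to a common library size). Mitochondrial genes took 2.09 to 3.52% of the counts in 4 libraries, those labelled TRULI 5 d replicates 1 and 2 and TRULI withdrawal replicates 1 and 2, and 14.2 to 28.2% in the other 6. Most of these counts came from the ribosomal RNA mt-Rnr2. The 4 libraries are the complete withdrawal set by deposited name, and a mixture of 5 d and withdrawal by label. All 14 supporting-cell markers were detected in every library, the most abundant being Epcam at 1378 to 5527 CPM and Otog at 2145 to 9964. The lowest by mean was Sox10, at 9.53 to 40 CPM, and Sox2 was at 32.8 to 86.5. Lfng, the gene behind the sort, was at 294 to 544 CPM in the 6 libraries and 21.6 to 104 in the 4. The summed hair-cell markers, led by Otof and Pou4f3, ranged from 33 to 922 CPM. Of 10 macrophage and leukocyte markers, C1qa, C1qb, C1qc and Adgre1 were at 0 in all libraries, while the sum of the 10, mostly Cd14 and Cd68, was 3.71 to 9.64 CPM in DMSO 5 d and 46.3 to 46.99 in TRULI withdrawal, and of 5 endothelial markers none exceeded 3.08 CPM in any library. Myod1, a muscle regulator, was at 0 to 0.386 CPM in the 6 libraries and 15.1 to 90.9 in the 4, while Myog and Pax7 were at 0 in all 10. The part of these differences in the results below was not tested.

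AP-1 is a dimer of basic leucine zipper proteins. Fos-family proteins cannot pair with each other and need a Jun-family partner, whereas Jun-family proteins can also pair among themselves. Fos, Fosb, Junb, Egr1 and Ier2 are immediate-early genes, transcribed within minutes of a growth factor, stretch or stress through factors that are already present, and their mRNAs are short-lived. AP-1 proteins are known to occupy many enhancers together with Tead, the DNA-binding partner of Yap. In dissociated and sorted tissue, immediate-early transcripts are also known to rise with handling. In bulk samples, a change in the share of cells that express a gene and a change in its mRNA per cell cannot be told apart.

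Upstream windows of 4 members are shown. Fos and Junb are the most abundant members of their families, Fosb is the Fos-family gene that differed most between libraries, and Jun is the member that differed least. Each gives the 250 bases before the RefSeq transcription start (GRCm38.p6), on the strand of the gene. Capitals mark the letters TATAAA in the window of Fos. In the windows of Jun and Junb they mark the letters CCAAT. In that of Jun they also mark the site TGACATCA, a variant of the cyclic AMP response element. The windows are chr12:85473640-85473889 on the plus strand for Fos, and on the minus strand chr7:19310046-19310295 for Fosb, chr4:95052223-95052472 for Jun and chr8:84978749-84978998 for Junb.
Fos: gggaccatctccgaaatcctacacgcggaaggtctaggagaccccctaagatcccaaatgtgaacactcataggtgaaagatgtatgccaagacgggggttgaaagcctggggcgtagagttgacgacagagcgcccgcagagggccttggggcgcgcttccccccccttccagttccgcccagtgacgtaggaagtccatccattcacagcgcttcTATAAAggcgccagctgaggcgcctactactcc
Fosb: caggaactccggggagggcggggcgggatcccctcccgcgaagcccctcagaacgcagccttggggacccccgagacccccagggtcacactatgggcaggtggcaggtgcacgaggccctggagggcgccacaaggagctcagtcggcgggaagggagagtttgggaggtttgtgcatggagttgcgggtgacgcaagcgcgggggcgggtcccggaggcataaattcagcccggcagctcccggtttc
Jun: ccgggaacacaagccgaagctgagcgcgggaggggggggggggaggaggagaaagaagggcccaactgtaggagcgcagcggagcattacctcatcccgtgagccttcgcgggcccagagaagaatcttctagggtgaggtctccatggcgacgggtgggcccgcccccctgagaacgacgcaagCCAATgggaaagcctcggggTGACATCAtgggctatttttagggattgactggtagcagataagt
Junb: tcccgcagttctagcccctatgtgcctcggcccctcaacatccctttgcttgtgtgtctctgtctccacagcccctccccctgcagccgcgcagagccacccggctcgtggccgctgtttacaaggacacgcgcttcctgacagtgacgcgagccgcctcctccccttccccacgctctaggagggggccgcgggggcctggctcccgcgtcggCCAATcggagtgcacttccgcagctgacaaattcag

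RefSeq windows were at hand for 7 members, Fos, Fosb, Fosl2, Jun, Junb, Jund and Atf3, and for 32851 promoters in all. On either strand, the AP-1 site TGACTCA was in 0 of the 7 and in 4.46% of all windows, and the cyclic AMP response element TGACGTCA in 0 of the 7 and 1.55%. The serum response element known as the CArG box was in 0 of the 7 and 1.47%, and the Tead site GGAATG in 0 of the 7 and 12.6%. Only these windows were searched, and Fosl1, Egr1 and Ier2 had none. Whether members hold such sites farther upstream or elsewhere was not tested. TGACATCA was in the window of Jun, 45 to 38 bases before the start, and in 2.93% of all windows. CCAAT stood 65 to 61 bases before the start of Jun and 36 to 32 before that of Junb, and TATAAA stood 33 to 28 before that of Fos; 33.8% and 12.4% of all windows held these letters. The Sp1 site GGGCGG was in the windows of Fos, Fosb, Fosl2, Jun and Atf3, 5 of 7, and in 32.7% of all. No match here was measured as a bound site. The window of Jund, chr8:70697489-70697738, lies upstream of the gene as GENCODE M21 draws it, chr8:70698949-70700616 on the plus strand, and does not adjoin it. It is counted among the 7 but is not printed. Its GC content was 47.6%, against 58.4% or more in the other windows of members.

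By length-corrected level (FPKM, fragments scaled to effective length and to the total of protein-coding counts), Fos ranked first with a median of 1032 over the 10 libraries and a range of 541 to 1639.9. Egr1 followed at 447, Junb at 417, Ier2 at 208, Fosb at 140.2, Jun at 98.6, Atf3 at 94.1, Jund at 61.7, Fosl2 at 12.9 and Fosl1 at 11.9. The ranges of neighbours in this order overlapped throughout, and those of Junb (79.8 to 2340.2) and Jund (11.7 to 451) were the widest as ratios of highest to lowest. In CPM, scaled by TMM and used for each gene across libraries, the mean of every member except Fosl1 and Fosl2 stood at a percentile of 93.6 or higher among protein-coding genes.

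Fos, the founding Fos-family subunit, lies on chromosome 12 (85473890 to 85477273, plus strand, 4 exons). It was at 2195, 2414 and 2298 CPM in the DMSO 5 d libraries and at 1924 and 1870.4 CPM in the TRULI withdrawal libraries. The libraries labelled TRULI 5 d were at 2401, 1989 and 732 CPM, and those labelled DMSO withdrawal at 1073 and 1380.1. The 3 lowest libraries are the 3 that were deposited as TRULI 5 d, and they did not overlap any of the other 7. The share of all genes that separate these libraries in the same way was not counted.

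Fosb, whose mRNA also gives the stable truncated form known from neurons, lies on chromosome 7 (19302696 to 19310051, minus strand). DMSO 5 d libraries held 209, 266 and 405 CPM, libraries labelled TRULI 5 d held 928, 724 and 78.1, those labelled DMSO withdrawal 164 and 355, and TRULI withdrawal libraries 779.5 and 863. All 4 libraries with few mitochondrial counts were above all 6 others. Fosl1 and Fosl2 encode Fra-1 and Fra-2, family members without the strong activation domain of Fos. Fosl1 was low throughout, at 5.46 to 13.5 CPM in DMSO 5 d, 9.53 to 24.7 in the libraries labelled TRULI 5 d, 12.4 and 12.7 in those labelled DMSO withdrawal, and 16.7 and 35.2 in TRULI withdrawal, and rested on 17 to 169 counts. Fosl2 ranged from 36 to 118 CPM, with its highest value in the library labelled TRULI 5 d replicate 1 and its lowest in DMSO 5 d replicate 2. The groups compared below overlapped for Fosl2 in 3 cases of 5. They did not overlap for DMSO 5 d, at most 59.1 CPM, against the libraries labelled TRULI 5 d, at least 72.9 CPM, nor for the libraries named DMSO withdrawal, at 118 and 72.9 CPM, against TRULI withdrawal, at 66.6 and 51.7 CPM.

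Jun, the founding Jun-family subunit and a target of the kinase Jnk, is an intronless gene on chromosome 4 (95049034 to 95052222, minus strand). It was at 233, 205 and 347 CPM in DMSO 5 d, 480.1, 216 and 171 in the libraries labelled TRULI 5 d, 158 and 268 in those labelled DMSO withdrawal, and 386 and 293 in TRULI withdrawal. Its highest value was 3.03 times its lowest, the smallest span of the 10 members.

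Junb, a Jun-family subunit that activates less strongly than Jun and can oppose it, lies on chromosome 8 (84974484 to 84978718, minus strand) in a single exon. DMSO 5 d libraries held 100.5, 179 and 580.3 CPM. The libraries labelled TRULI 5 d held 3523, 2095 and 91 CPM, so that the group contained both the highest and the lowest value of all 10. Those labelled DMSO withdrawal held 149 and 456 CPM, and TRULI withdrawal libraries 2473 and 2655.

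Jund, the Jun-family subunit usually described as constitutive rather than immediate-early, is also intronless and lies on the same chromosome on the plus strand. It was at 13.1, 20.6 and 41.3 CPM in DMSO 5 d, 571, 562 and 32.9 in the libraries labelled TRULI 5 d, 44.2 and 91.8 in those labelled DMSO withdrawal, and 611 and 663 in TRULI withdrawal. The highest library was 50.5 times the lowest, the widest span of the 10, and no library lay between 91.8 and 562 CPM.

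Egr1, a zinc-finger factor induced through serum response factor and its Elk partners, was at 1341, 980.4 and 1254 CPM in DMSO 5 d, 2474, 1087 and 493 in the libraries labelled TRULI 5 d, 578 and 949.5 in those labelled DMSO withdrawal, and 1706 and 1399 in TRULI withdrawal. It lies on chromosome 18 (34859823 to 34864984, plus strand). As for Fos, the 3 libraries deposited as TRULI 5 d were below the other 7, again without a count of all genes that do so. Atf3, a stress-induced leucine zipper factor of the Atf family that can dimerise with Jun proteins, was at 134, 127 and 128 CPM in DMSO 5 d, 232, 68.9 and 72.7 in the libraries labelled TRULI 5 d, 119.6 and 126 in those labelled DMSO withdrawal, and 124 and 138 in TRULI withdrawal. Of its 10 values, 7 lay between 119.6 and 138 CPM, and the 3 outside that range were all labelled TRULI 5 d. Ier2, an intronless immediate-early gene that encodes a nuclear protein, was at 133, 173 and 245 CPM in DMSO 5 d, 467, 532 and 51.1 in the libraries labelled TRULI 5 d, 80.2 and 103 in those labelled DMSO withdrawal, and 479 and 739 in TRULI withdrawal. It was highest in the 4 libraries with few mitochondrial counts and lowest in the 3 deposited as TRULI 5 d. How many of all genes share the latter order was not counted.

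**Figure D1:**
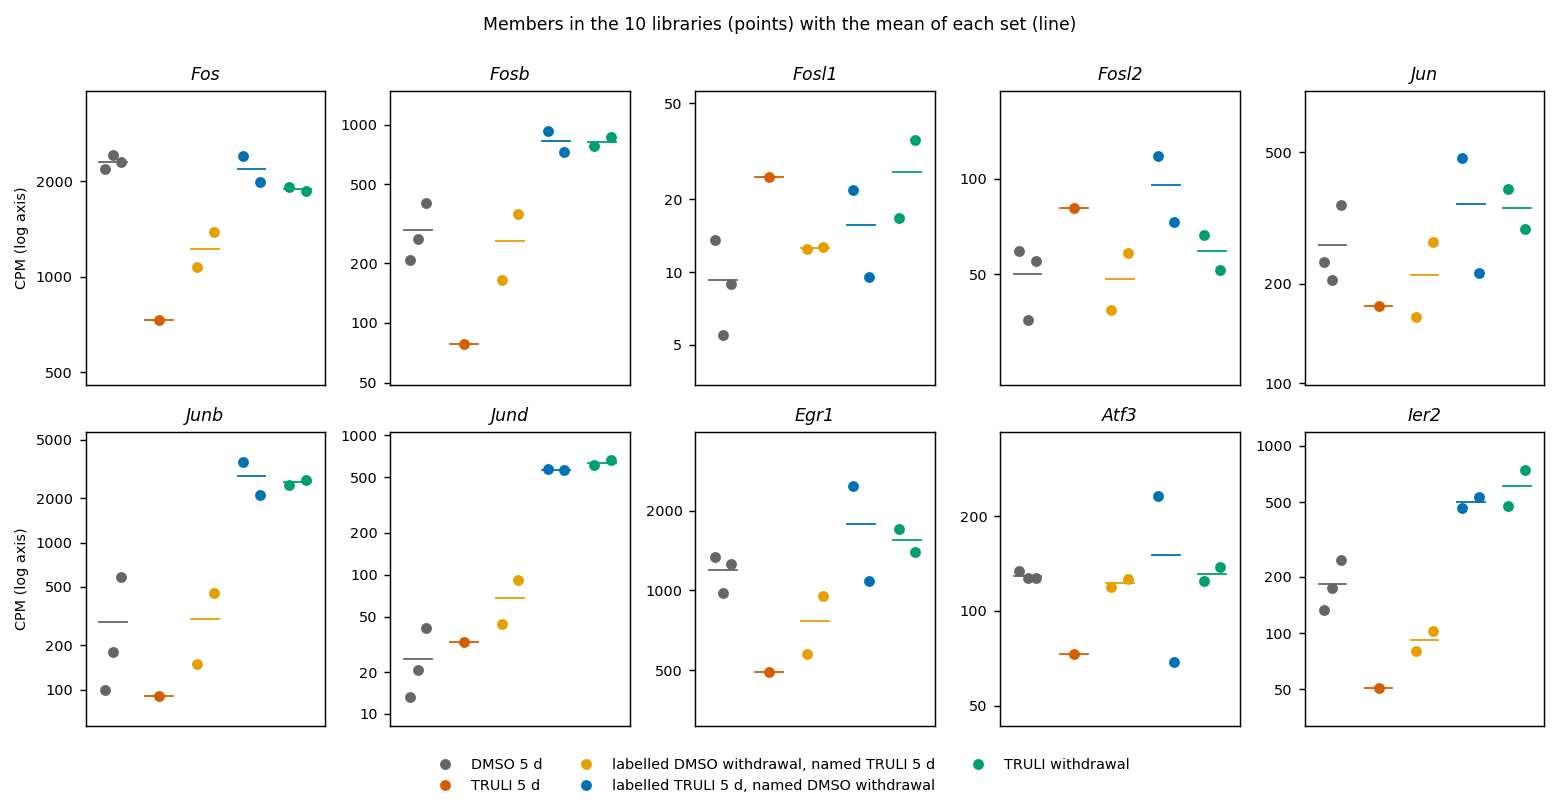
The vertical axis of each panel gives CPM on a log scale for 1 member, each point is 1 library and each line the mean of a set of libraries, coloured by label and deposited name as the legend gives them. Fosb, Junb, Jund and Ier2 are high in the 4 libraries of the blue and green sets and lower in all 6 others, and Fos and Egr1 are lowest in the 3 libraries drawn in red-orange and yellow-orange. The share of all genes that are lowest in those 3 libraries was not counted.

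Between the 4 libraries with 2.09 to 3.52% mitochondrial counts and the 6 others, 4 of the 10 members did not overlap, all higher in the 4, beside 18.4% of 8262 protein-coding genes that were higher in the same way and 10.7% that were lower. Fosb was at 724 to 928 CPM against 78.1 to 405, Junb at 2095 to 3523 against 91 to 580.3, Jund at 562 to 663 against 13.1 to 91.8, and Ier2 at 467 to 739 against 51.1 to 245. These sets of libraries were made from the data and are not groups of the study, so no test was run between them. The mean log2(CPM + 1) of the 4 exceeded that of the 6 by 4.10 for Jund and 3.71 for Junb, and the median of all 8262 genes was 0.12.

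Of the 4 members without overlap, Jund, Junb and Ier2 share features of sequence that the choice of members did not use. GC makes up 67.1% of the Jund transcript, 62.6% of Junb and 60.9% of Ier2, all in the decile of genes richest in GC, and each is a single exon. Fosb, the fourth member whose libraries did not overlap, shares neither feature, with 55.98% GC and 4 exons. Jun is also a single exon, with 55.5% GC, and its libraries overlapped. In the richest decile, 57 to 67.3% GC, the median difference between the sets of libraries was 0.23 on the log2 scale, against 0.06 to 0.17 in the other 9 deciles. The median was 0.15 for 420 single-exon genes and 0.12 for 7842 genes with several exons. Within the richest decile, Jund and Junb exceeded 99.8% and 99.5% of genes and Ier2 94.1%, while Egr1 and Fosl1, also in it, exceeded 67.8% and 62.3%. The part of GC content and mitochondrial share in these values was not tested.

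**Figure D2:**
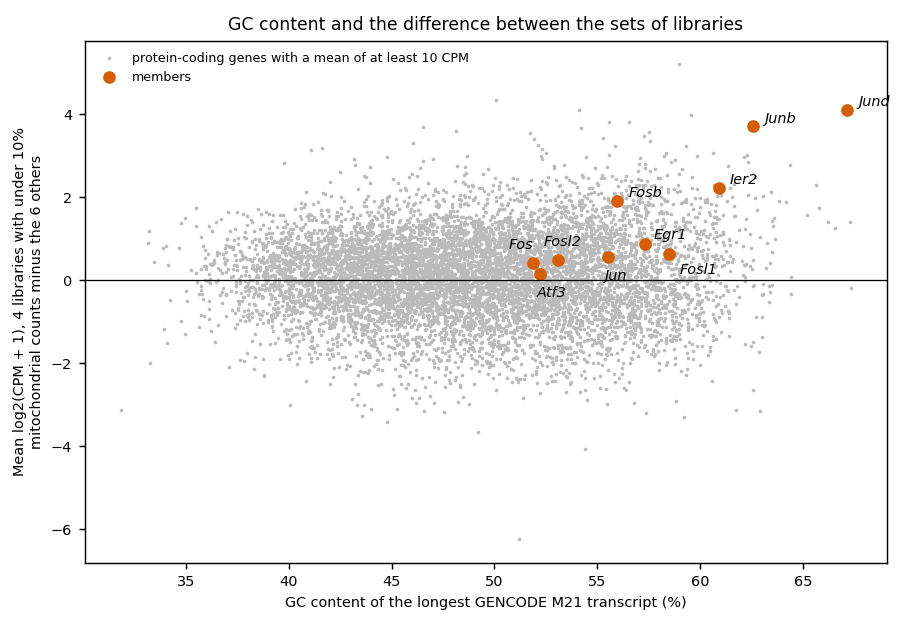
The horizontal axis gives the GC content of the longest transcript in percent and the vertical axis the mean log2(CPM + 1) of the 4 libraries with few mitochondrial counts minus that of the 6 others, with grey points for protein-coding genes of at least 10 CPM and orange points for members. Jund at 67.1% GC and Junb at 62.6% stand near the top right, at 4.10 and 3.71, while the grey cloud stays centred near 0 at every GC content.

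The composition of the Fos and Jun pool, as shares of the summed FPKM of the 7 subunits, followed the same division of libraries. Fos made up 83.4, 82 and 65.5% in the DMSO 5 d libraries and 67.1% in TRULI 5 d replicate 3. It made up 70.3 and 56.5% in the libraries labelled DMSO withdrawal. In the libraries labelled TRULI 5 d replicates 1 and 2 its share was 29.2 and 34.3%, and in TRULI withdrawal 30.1 and 28.3%. Junb took the largest share in those 4 libraries, 50.9, 43, 46.1 and 47.6%, and 4.52 to 22.2% in the 6 others. The Jun family as a whole thus ranged from 10.8 to 34.1% of the pool in the 6 libraries and from 58 to 63.7% in the 4. The summed level was also higher, at 2843 to 4595 FPKM in the 4 against 807 to 2432 FPKM in the 6. Fosl1 and Fosl2 never exceeded 2.87 and 2.34%, both reached in TRULI 5 d replicate 3. Shares of mRNA say nothing about the amount or pairing of the proteins.

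**Figure D3:**
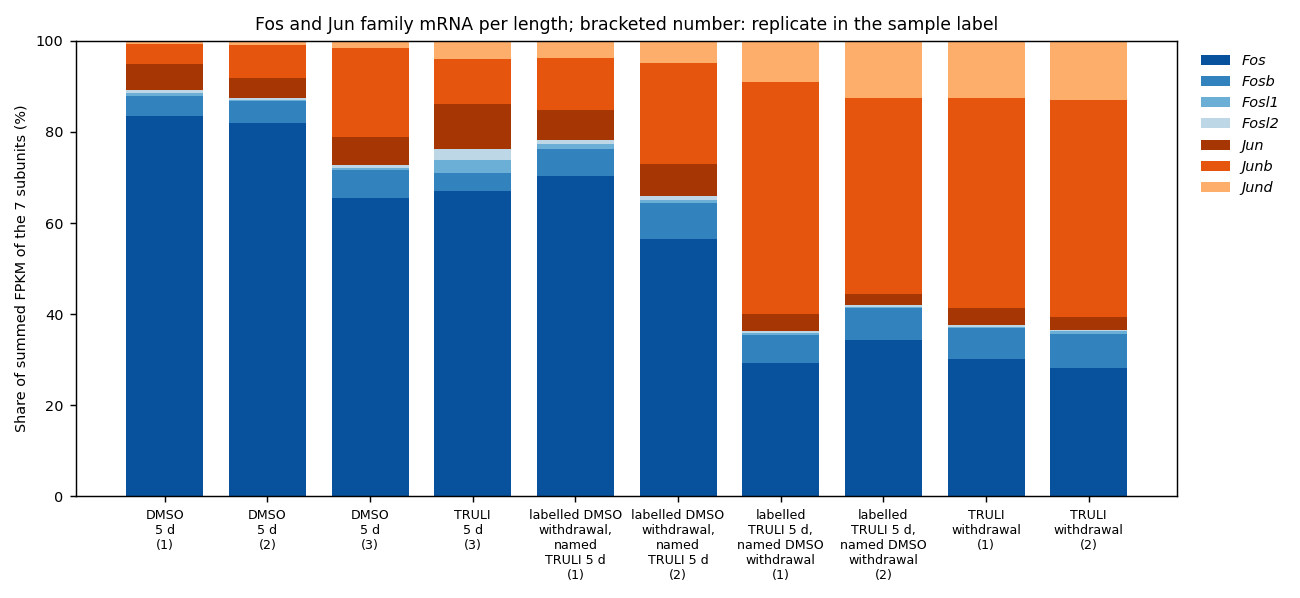
Each bar is 1 library and its segments are the shares of the 7 Fos and Jun family genes in their summed FPKM, in percent from 0 to 100. Fos fills 56.5 to 83.4% of the 6 bars on the left and 28.3 to 34.3% of the 4 on the right, where Junb fills 43 to 50.9%.

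The comparison that rests only on libraries with 1 condition in both sources sets the 2 TRULI withdrawal libraries against the 3 DMSO 5 d libraries, which differ in treatment and also in culture time. Members were called by edgeR (quasi-likelihood test) where the Benjamini-Hochberg adjusted p was under 0.05 and the fold change more than 1 on the log2 scale in either direction. Of the 10, 4 were higher and 0 lower, where 11% of 11112 protein-coding genes were higher and 8.69% lower. Jund rose by a log2 fold change of 4.58 ± 0.44 (SE, adjusted p = 0.00298), Junb by 3.09 ± 0.61 (adjusted p = 0.0136), Ier2 by 1.66 ± 0.33 (adjusted p = 0.0136) and Fosb by 1.41 ± 0.31 (adjusted p = 0.018). Both TRULI withdrawal libraries exceeded all 3 DMSO libraries for each of the 4. Fosl1 had a value of 1.41 ± 0.54 with an adjusted p of 0.0959, and the other 5 lay between -0.36 and 0.30. The median of the 10 members was 0.85, against 0.01 over all genes tested. Of 14 supporting-cell markers, 6 were called lower in the same fit, Lfng, Sox2, Slc1a3, Otog, Otogl and Cldn9, with a summed level of the list of 14735 to 18025 CPM in DMSO 5 d and 9686 to 10243 in TRULI withdrawal. Among markers of other cells, Cd14 (log2 fold change 3.10 ± 0.57), Col1a2 (2.504 ± 0.59), Mbp (1.54 ± 0.38) and Myod1 were called higher. Their part in the rise of the members was not tested. Every TRULI library in this comparison has few mitochondrial counts and every DMSO library has many, so treatment, time and that division cannot be told apart. Without DMSO 5 d replicate 1 the count was 2 and without replicate 2 it was 1, and with all 10 libraries in one fit it was 0. The count over all protein-coding genes depended on the settings too, and the shares above belong to the fit without these changes.

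By sample label at 5 d, 0 of the 10 members were called, beside 0.00945% of 10580 protein-coding genes that were higher and 0% lower. The unadjusted edgeR value was under 0.05 for 3, Jund, Junb and Fosl2, beside 1450 of the 10580 protein-coding genes. DESeq2 called 1 member, Jund, beside 207 of 15158 protein-coding genes that were higher and 60 lower. The log2 fold changes were 3.92 ± 0.93 for Jund, 2.70 ± 1.09 for Junb, 1.001 ± 0.55 for Fosl1, 0.94 ± 0.72 for Fosb and 0.90 ± 0.69 for Ier2, with adjusted p-values of 0.323 to 0.55. Fos was at -0.46 ± 0.47. Replicates 1 and 2 and replicate 3 of this group lay on opposite sides of the DMSO libraries for Fosb, Junb and Ier2. Without TRULI 5 d replicate 3, edgeR called 4 members higher, Fosb, Junb, Jund and Ier2, beside 10.5% of 10810 protein-coding genes that were higher and 8.17% lower. With that library as the only one of its group, which leaves libraries with over 10% mitochondrial counts only, 0 were called and several values had the opposite sign. Fosb was then at -1.90, Ier2 at -1.83, Junb at -1.64 and Egr1 at -1.27 on the log2 scale, with Fos at -1.65 and Jund at 0.39 (adjusted p-values of 0.0632 to 0.884).

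By sample label after withdrawal, 3 of 10 members were higher and 0 lower, beside 0.985% of 11469 protein-coding genes that were higher and 1.06% lower. Jund rose by 3.17 ± 0.44 on the log2 scale (adjusted p = 0.0312), Junb by 3.03 ± 0.54 (adjusted p = 0.0445) and Ier2 by 2.68 ± 0.39 (adjusted p = 0.0326). Fosb, at 1.61 ± 0.43, had an adjusted p of 0.0817. All 10 log2 fold changes were above 0, with a median of 0.98 against 0.01 over all genes tested. For Fos (0.57), Jun (0.62) and Egr1 (0.97) both TRULI withdrawal libraries lay above both libraries labelled DMSO withdrawal, and none passed the test. Of the supporting-cell markers, Lfng and Slc1a3 were called lower in this comparison, and Myod1 was called higher. The groups are again split by mitochondrial share, and the labelled DMSO libraries are 2 of those deposited under another condition. The count was 0 with all 10 libraries in one fit. Leaving out 1 library leaves 1 in its group, and the members called then depended on which library was left out. In those fits the log2 fold changes ran from 2.74 to 3.77 for Jund, 2.43 to 4.02 for Junb and 2.30 to 2.94 for Ier2.

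By deposited name at 5 d, all 6 libraries have many mitochondrial counts, and the direction of the members was another one. Fos fell by 1.10 on the log2 scale (SE 0.25, adjusted p = 0.0426), and it was the 1 member of 10 called, beside 0.992% of 10984 protein-coding genes called lower and 2.09% higher. Each of the libraries named TRULI 5 d, at 732, 1073 and 1380.1 CPM, was below the lowest DMSO library at 2195 CPM. Ier2, at -1.21 ± 0.30, had an adjusted p of 0.0533, and its 3 libraries (51.1, 80.2 and 103 CPM) were below the lowest DMSO library at 133 CPM. Egr1 was at -0.81 ± 0.27 (adjusted p = 0.157), Jun at -0.38, Fosb at -0.55 and Junb at -0.30. Jund had the opposite sign, 1.17 ± 0.44 (adjusted p = 0.214). The median of the members was -0.34, against 0.02 over all genes tested.

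The replicate numbers in the deposited names were taken to pair these 6 libraries, because same-numbered libraries deviated together in these same data. The sources used here state no such pairing, so the p-values with the block rest on that assumption. With the replicate block edgeR called 3 members, beside 4.19% of the 10984 genes called higher and 1.93% lower. Fos fell by 1.14 (SE 0.18, adjusted p = 0.00242), Ier2 fell by 1.22 (SE 0.17, adjusted p = 0.00106) and Jund rose by 1.20 ± 0.21 (adjusted p = 0.00458). Egr1, at -0.85 ± 0.20, had an adjusted p of 0.02 in that fit and stayed within the fold threshold. With the replicate block and a correction for GC content together, 2 were called, Fos and Ier2, and Jund was at 0.80. Without the block, the count was 0 without DMSO 5 d replicate 2 or 3 or without the library named TRULI 5 d replicate 1 or 2, and 3 without the library named replicate 3. It was 0 with all 10 libraries in one fit and 2 with DESeq2. Over all protein-coding genes, the count ran from 51 to 371 on leaving out 1 library.

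By deposited name after withdrawal, all 4 libraries have few mitochondrial counts. Of the 10 members 0 were called by edgeR or DESeq2, 0 had an unadjusted p under 0.05, and 0% of 10845 protein-coding genes were called, although 490 had an unadjusted p under 0.05. The log2 fold changes lay between -0.70 for Fosl2 and 0.70 for Fosl1, with standard errors of 0.31 to 0.72. Junb was at -0.14 ± 0.34, Jund at 0.16 ± 0.33 and Fos at -0.22 ± 0.31. With 2 libraries a group, changes of the size of these errors were not detectable.

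**Figure D4:**
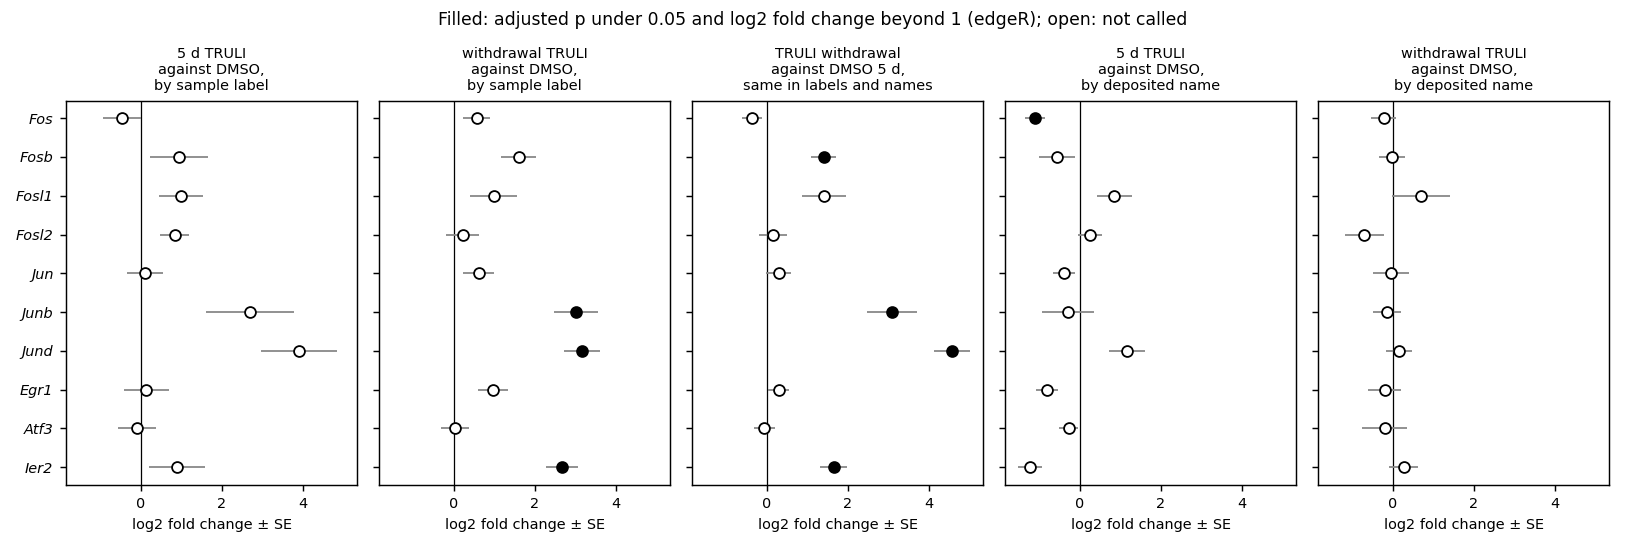
Each panel is 1 of the 5 comparisons, with the log2 fold change of TRULI over DMSO on the horizontal axis and the members on the vertical axis, bars of ± SE, and filled points for members called by edgeR. Junb and Jund lie at 2.70 or more in the first 3 panels, and in the fourth Fos is at -1.10 and Ier2 at -1.21.

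These comparisons share libraries: the DMSO 5 d libraries serve in 3 of them and the TRULI withdrawal libraries in 3. The difference between the effects at 5 d and after withdrawal was tested as an interaction over all 10 libraries. No member passed in either grouping, and 0 of 12841 genes did. The smallest adjusted p among members was 0.412 for Ier2 by deposited name, where the withdrawal effect exceeded the 5 d effect by 1.51 ± 0.49 on the log2 scale, and by label it was 0.793, also for Ier2.

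Of the leucine zipper partners outside the members, 11 were listed and 7 or 8 were tested in each comparison, and 0 were called in any. The share over all protein-coding genes was largest in TRULI withdrawal against DMSO 5 d, with 11% higher and 8.69% lower. Mafg, a small Maf protein, had the highest mean level, 77 CPM, with a range of 56.4 to 101, followed by Atf7 at 52.2 CPM. Atf7, a partner of Jun proteins, was at 32.5 to 44.5 CPM in the 6 libraries with many mitochondrial counts and 54.9 to 98.6 in the 4. Batf2 and Batf3, the lymphoid partners of Jun, were at 0 in every library, and Batf was at most 0.209 CPM.

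In the comparison of TRULI withdrawal with DMSO 5 d, 11% of 11112 protein-coding genes were higher and 8.69% lower. Among 37 other immediate-early genes, 32 were tested in it, and 10 were higher and 5 lower. The higher ones included Zfp36l1, a destabiliser of AU-rich mRNAs, at 392, 409.8 and 529 CPM in DMSO 5 d and 1405 and 1734 in TRULI withdrawal (log2 fold change 1.75 ± 0.26, adjusted p = 0.00678). Gadd45b, a stress-response gene, rose by 2.52 ± 0.41 (adjusted p = 0.00838) and Klf2 from at most 3.21 CPM to 29.6 and 34.8 CPM (adjusted p = 0.00842). Myc, the growth regulator, rose by 3.13 ± 0.65 (adjusted p = 0.0153). Nr4a1, an orphan nuclear receptor, fell from 914, 830.3 and 905 CPM to 212 and 172 (log2 fold change -2.28 ± 0.27, adjusted p = 0.00376). The list thus moved in both directions, with a median of 0.41.

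In the other comparisons fewer of these genes were called, and fewer of all protein-coding genes too. By label, 0.00945% of all were higher and 0% lower at 5 d, and 0.985% and 1.06% after withdrawal. By deposited name the shares were 2.09% and 0.992% at 5 d, and 0% and 0% after withdrawal. Of this list by label, 0 of 32 were called at 5 d and 1 of 32 after withdrawal. That gene was Klf2, at 0.239 and 2.04 CPM in DMSO and 29.6 and 34.8 CPM in TRULI (adjusted p = 0.0463). By deposited name at 5 d, Nr4a1 fell by 1.10 (SE 0.23, adjusted p = 0.0303) and Nr4a3 fell by 2.76 (SE 0.59, adjusted p = 0.0319), while Myc rose by 3.14 ± 0.46 (adjusted p = 0.00703), 3 of 31 tested. The 3 libraries named TRULI 5 d held 26.5, 24.8 and 26.4 CPM of Myc and the DMSO libraries 0.773, 3.54 and 4.2. After withdrawal by deposited name, 0 of 32 were called. Zfp36l1 and Btg2 were the most abundant genes of the list, with means of 854 and 782 CPM.

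Of 19 kinases and factors upstream of the members, the Mapk cascades, Elk and Mrtf factors and Creb1, 18 were tested, and 1 rose and 1 fell in TRULI withdrawal against DMSO 5 d. Over all 11112 protein-coding genes in that comparison, 11% were higher and 8.69% lower, so these 2 calls do not set the list apart. Map2k1, which encodes the kinase Mek1, rose by 1.23 ± 0.32 (adjusted p = 0.0297). Mapk14, the stress kinase p38α, fell by 1.18 (SE 0.30, adjusted p = 0.0281). Map2k1 had the highest mean of the list, 632 CPM. In the 4 other comparisons 0 were called.

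Of 24 genes often cited as AP-1 targets, 10 to 13 were tested in a comparison, and 11, among them Mmp3, Mmp9, Mmp10, Mmp13 and Plau, were too low in every one. By deposited name at 5 d 3 rose and 0 fell, beside 2.09% and 0.992% of 10984 protein-coding genes. Ccnd1, cyclin D1, was at 30.9, 91.6 and 147 CPM in DMSO and 418, 729 and 999 in the libraries named TRULI (log2 fold change 3.01 ± 0.50, adjusted p = 0.0109). Lgals3, galectin-3, rose by 2.27 ± 0.26 (adjusted p = 0.0019) and Tnc, the matrix protein tenascin C, by 1.84 ± 0.42 (adjusted p = 0.0413). These 3 genes rose in the same comparison in which Fos was called lower.

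In TRULI withdrawal against DMSO 5 d, 4 of 11 tested targets rose, beside 11% of 11112 protein-coding genes. Hbegf, a ligand of the EGF receptor, was at 21.2, 33.1 and 28.9 CPM in DMSO and 93.6 and 129 CPM in TRULI (log2 fold change 1.92 ± 0.32, adjusted p = 0.00907). The cytokine gene Lif rose by 2.92 ± 0.57 (adjusted p = 0.0135), Timp1, a protease inhibitor, by 3.24 ± 0.78 (adjusted p = 0.0241) and Tnc by 2.14 ± 0.64 (adjusted p = 0.0462). By label after withdrawal, Timp1 was called higher (adjusted p = 0.0425), from a single count in each DMSO library, and Lgals3 lower (log2 fold change -2.97 ± 0.38, adjusted p = 0.0312), and at 5 d by label and after withdrawal by deposited name 0 were called. Vegfa was the most abundant of the list, at a mean of 563 CPM, and passed no test.

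Yap1, Wwtr1 and the Tead genes, whose proteins share enhancers with AP-1, were present in every library except for Tead3 in 1. Yap1 was at 102 to 154 CPM in the 6 libraries with many mitochondrial counts and 151 to 281 in the 4, and Wwtr1, which encodes Taz, at 74.4 to 115 and 199 to 344. In TRULI withdrawal against DMSO 5 d, Wwtr1 rose by 1.67 ± 0.28 (adjusted p = 0.00898) and Tead1 by 1.42 ± 0.38 (adjusted p = 0.0335), 2 of 7 tested. Over all protein-coding genes, 11% were higher in that comparison. Tead1 was by far the most abundant Tead gene, with a mean of 104 CPM against 10.6 for Tead4. In the 4 other comparisons 0 of the list were called.

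Because handling of tissue can raise immediate-early transcripts, 11 heat-shock genes known for the same response were set beside the members. In TRULI withdrawal against DMSO 5 d, 2 were called higher and 2 lower, beside 11% of 11112 protein-coding genes higher and 8.69% lower. In TRULI withdrawal against DMSO 5 d, Hspa1a and Hspa1b, a near-identical pair whose reads can be shared, rose by 1.44 ± 0.42 (adjusted p = 0.0426) and 2.23 ± 0.44 (adjusted p = 0.0138). Hspa8, a chaperone, fell by 2.24 (SE 0.28, adjusted p = 0.00438), from 1075, 1159 and 1151 CPM to 293 and 213, and Dnajb4 fell by 1.13 (SE 0.35, adjusted p = 0.0496). By label after withdrawal Hspa8 was the 1 gene called, lower, beside 1.06% of 11469 protein-coding genes, and in the 3 other comparisons 0 were. The summed level of the list was 2032 to 2328 CPM in DMSO 5 d and 1422 to 1739 CPM in TRULI withdrawal. Hspa8 weighs heavily in this sum. Hsp90aa1, the next most abundant gene, was at 576, 497 and 363 CPM in DMSO 5 d and 993 and 795 in TRULI withdrawal. Of the 11 log2 fold changes, 4 were above 0 and 7 below, so the sum does not speak for each gene. The summed level of the members was 4406 to 5362 CPM in DMSO 5 d and 8566 to 8707 CPM in TRULI withdrawal. Whether handling had a part in the members' levels was not tested.

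Among 8262 protein-coding genes with a mean of at least 10 CPM, those most like each member across the 10 libraries were ranked by Pearson's r of log2(CPM + 1). The points share the division by mitochondrial counts, so that for Fosb, Junb, Jund and Ier2 a high r mostly restates it. Jund was most like Hdgf, Sf1 and Nectin1, with r of 0.989 to 0.994, and Junb most like Ranbp9, Sft2d2 and Atp2b4, with r of 0.987 to 0.990. Ier2 was close to Gsn (0.982) and Cntnap2 (0.981), and Fosb followed Usp54, Prom2 and Ank (0.976 to 0.984). Fos, which did not follow that division, was most like Chil1 (0.981), Epcam (0.967) and Muc15 (0.964). Epcam, an epithelial adhesion gene on the list of supporting-cell markers, was at 4355, 5527 and 4384 CPM in DMSO 5 d and at 1378, 1879 and 2474 CPM in the libraries deposited as TRULI 5 d. It fell by 1.30 in the 5 d comparison by deposited name (SE 0.26, adjusted p = 0.0241), in which Fos was also called lower. Epcam was the 1 of 14 supporting-cell markers called there, beside 0.992% of 10984 protein-coding genes called lower. Of the 14 log2 fold changes, 5 were above 0 and 9 below.

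Egr1 was most like its paralog Egr2 (0.948), then Trib2 (0.937) and Phlpp1 (0.932). Egr2 was at 174, 154 and 269 CPM in DMSO 5 d, 1011, 347 and 60.1 in the libraries labelled TRULI 5 d, 54.9 and 122 in those labelled DMSO withdrawal, and 484 and 379.8 in TRULI withdrawal. Jun was most like Cxadr (0.960), Agtrap and Zxdb, Atf3 most like Cnot11 (0.900), Abcb10 and Slc6a6, Fosl2 most like Col4a2 (0.912), Psme3 and Hs3st3b1, and Fosl1 most like Lrrc41 (0.889), Tmem209 and D10Wsu102e. Among the members themselves r was 0.953 between Fosb and Junb, 0.948 between Junb and Jund and 0.905 between Jun and Egr1, and it was 0.229 between Fos and Jund. These are descriptions over 10 libraries in a search of many genes.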

How the data were processed

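The authors sorted Lfng-EGFP cells, mapped paired-end reads to GRCm38 with STAR and deposited 1 table per library of expected counts per gene, without normalization, in the form that RSEM writes. The counting program is not given in the sources used here. The sources differ on the library kit (QIAseq FX in the methods, poly(A) selection and TruSeq in the labels).

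Expected counts were rounded to whole numbers. Genes were filtered with filterByExpr, scaled with TMM and compared by quasi-likelihood tests in edgeR 4.0.16 (R 4.3.3), with the 2 groups of a comparison in one fit and p-values adjusted over all genes tested. DESeq2 1.42.0 was an alternative. CPM used TMM factors over all 10 libraries, and FPKM the deposited effective lengths. Symbols and positions came from GENCODE M21, matching 48349 of 48709 genes, and upstream windows from RefSeq (GRCm38.p6). Code was tested on simulated data.

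Samples were grouped by label and by deposited name. The members and gene lists were chosen with earlier results of these data known. Named genes were all members, of each other list the called genes with the lowest p (up to 5) and the 2 most abundant, and the 3 genes most like each member, and some further genes of these lists were named after their values were seen. Some genes that this rule selects are not reported here. In the 5 d comparison by deposited name, same-numbered libraries deviated together (correlations of 0.379, 0.191 and 0.313 over 11529 genes), so the numbers in the names were taken to pair them. No 2 libraries agreed within sampling noise (chi-square per degree of freedom at least 15.3). The methods describe the replicates as biological, and the sources used here do not say which animals or cultures each library came from. Floors of 3 counts cover counting error only.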

Additional observations from a re-analysis of the deposited data

How the results depend on the processing

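Counts of members called depended on the settings. Of 670 values of single members under alternatives, 592 kept their direction and call status, 27 gained a call, 23 lost one and 28 changed sign. The sign changes were in values called neither as first fitted nor under the alternative. By label at 5 d in libraries with over 10% mitochondrial counts, they were Fosb (-1.90), Ier2 (-1.83), Junb (-1.64), Egr1 (-1.27) and Jun (-0.60). With the replicate block they were Egr1 by label at 5 d (-0.11) and, by deposited name after withdrawal, Jun (0.054) and Atf3 (0.034), and without the filter Atf3 in TRULI withdrawal against DMSO 5 d (0.021). On leaving out 1 library, log2 fold changes by label at 5 d ran from -0.42 to 0.36 for Jun, -0.58 to 0.51 for Egr1 and -0.85 to 0.21 for Atf3, and by label after withdrawal from -0.037 to 0.53 for Fosl2 and -0.075 to 0.093 for Atf3. They ran from -0.17 to 0.080 for Atf3 in TRULI withdrawal against DMSO 5 d, and by deposited name at 5 d from -1.22 to 0.71 for Junb and -0.047 to 0.48 for Fosl2. By deposited name after withdrawal they ran from -0.18 to 0.16 for Fosb, -0.50 to 0.63 for Jun, -0.46 to 0.27 for Junb, -0.68 to 0.49 for Egr1, -0.82 to 0.91 for Atf3 and -0.075 to 0.55 for Ier2. By label at 5 d, the count of 0 became 1 with DESeq2 and 2 without the filter on low counts, and leaving out 1 library gave 0 to 4. By label after withdrawal, the count of 3 became 0 with all 10 libraries in one fit, and 0 to 5 on leaving out 1 library. For TRULI withdrawal against DMSO 5 d, the count of 4 became 0 with all 10 libraries in one fit and 1 to 5 on leaving out 1 library. By deposited name at 5 d, the count of 1 became 2 with DESeq2, with DESeq2's size factors, without mitochondrial genes or with a GC offset, 3 without the filter, 0 with all 10 libraries in one fit and 0 to 3 on leaving out 1 library. By deposited name after withdrawal it stayed 0. The GC offset and the restriction to libraries with over 10% mitochondrial counts were chosen after seeing the data. Where 1 library was left in a group, it was assumed to vary like the others. The cause of these changes was not tested.

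With the replicate number as a block, the count by deposited name at 5 d was 3, and 2 with the replicate block and GC offset together. The block gave 0 by label at 5 d, 4 by label after withdrawal, 4 for TRULI withdrawal against DMSO 5 d and 0 by deposited name after withdrawal. The sources used here state no pairing in those comparisons. By label at 5 d, same-numbered libraries correlated at -0.158, 0.0665 and -0.195, and in TRULI withdrawal against DMSO 5 d at -0.000997 and 0.00311. After withdrawal they correlated at 0.202 by label and 0.180 by deposited name. With 2 libraries a group, each of these last comparisons gives a single value up to its sign. Over all protein-coding genes, the count by label at 5 d went from 1 to 267 with DESeq2, 567 without the filter, 2 with all 10 libraries in one fit, 0 with the block, 127 in libraries with over 10% mitochondrial counts and 0 to 2022 on leaving out 1 library. By label after withdrawal, 235 became 1370, 1593, 0 and 1203 under the first 4 of these settings and 5 to 2917 under the last. By deposited name at 5 d, 339 became 591, 838, 103 and 672, 664 with the block and GC offset, and 51 to 371. By deposited name after withdrawal, 0 became 50 with DESeq2, 169 without the filter and 0 to 2. For TRULI withdrawal against DMSO 5 d, 2186 became 11 with all 10 libraries in one fit and 324 to 3333 on leaving out 1.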
